A study of Arabidopsis thaliana with 12 samples.

Results

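Transcripts of 5 genes for carotenoid synthesis and for the plastid isoprenoid supply were followed in *Arabidopsis thaliana* seedlings at the end of the night. The genes were *HDR* (AT4G34350), *PSY* (AT5G17230), *BCH2* (AT5G52570), *CYP97A3* (AT1G31800) and *ZEP* (AT5G67030), chosen as named members of this pathway and taken by locus, with 1 probe set for each among the 38113 probe sets tested. All 5 were named through the study's own list of genes regulated on these arrays, and 0 through the platform annotation, so their calls in the comparisons behind that list, *pifq* SD with WT SD and WT SD with WT LL, are not independent of how they were named.

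The study asked which transcripts differ at dawn when hypocotyls elongate during a long night, and which of them depend on PIF1, PIF3, PIF4 and PIF5 (together PIFq), basic helix-loop-helix factors that accumulate in darkness. It measured 12 Affymetrix AraGene 1.0 ST arrays, 3 biological replicates for each of 4 groups of 3 day-old whole seedlings. *pifq* SD was the mutant of all 4 PIFq genes, in short days (SD, 8 h of white light at 85 μmol per square metre and second, then 16 h of darkness), sampled after the dark period (24 h after dawn), and WT SD was Col-0 handled in the same way. *pifq* LL and WT LL were the same genotypes after 2 days of SD and then an additional day in continuous white light (LL), sampled at the end of the subjective night, 24 h after subjective dawn. All 4 groups shared a cold treatment of the imbibed seeds in darkness and a medium without sucrose. The mutations are present in every tissue throughout growth, and the alleles and the number of seedlings pooled for an array are not given in the sources used here.

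Carotenoids are built in plastids from the isoprenoid units of the methylerythritol phosphate (MEP) pathway, which also feeds chlorophyll, plastoquinone, tocopherol and gibberellin synthesis. Phytoene synthase commits geranylgeranyl diphosphate to carotenes, which are desaturated, cyclised and then hydroxylated to xanthophylls. In leaves, carotenoids harvest light and protect the photosystems from excess light, and violaxanthin and neoxanthin are precursors of abscisic acid. PSY transcription is a known point of control in greening seedlings, and PIF1 is known to bind the *PSY* promoter in dark-grown *Arabidopsis* seedlings.

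Signals are the deposited RMA values on the log2 scale, given for replicates 1, 2 and 3 in that order, with means ± SD (n = 3). The log2 fold change (FC) is the mean of the first-named group minus that of the second, ± its standard error in a limma fit over all 12 arrays, and p-values were adjusted by Benjamini-Hochberg over the 38113 probe sets. A gene was called (SS1.5F) where the adjusted p was below 0.05 and the fold at least 1.5. RMA signals of different probe sets are not set against each other, since each has its own hybridisation efficiency. In RNA from whole seedlings, fewer cells of a green cell type and less RNA per cell cannot be told apart.

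The arrays correlated at Pearson r of 0.965 to 0.983 within groups, and their medians lay between 5.0009 and 5.1246. The probe sets of *PIF1*, *PIF3* and *PIF5* were at 6.12 to 6.83, 3.10 to 3.98 and 5.51 to 6.70 in the 6 *pifq* arrays, against 8.07 to 8.58, 7.10 to 7.73 and 9.45 to 10.0 in the 6 WT arrays, and *PIF4* was not analysed here. The summed linear signal of 8 photosystem and light-harvesting genes, a list added after the gene names were seen, was 19795 to 22861 in *pifq* SD, 19376 to 19660 in WT SD, 23249 to 25110 in *pifq* LL and 23727 to 24720 in WT LL. *LHCB4.3*, a minor antenna protein gene of photosystem II, at 4.01 in WT SD and 5.28 in WT LL, was the only 1 of the 8 called between WT SD and WT LL (log2 FC -1.27, limma adjusted p = 0.00327), where all 8 lay below 0 with a median of -0.33, and 0 of the 8 were called between *pifq* SD and WT SD, with all 8 above 0 in *pifq* SD and a median log2 FC of 0.18. The seed oil body gene *OLEO3* had a linear signal of 14 to 21 in *pifq* SD, 24 to 46 in WT SD, 12 to 18 in *pifq* LL and 12 to 15 in WT LL. It was called higher in WT SD than in WT LL (log2 FC 1.26, limma adjusted p = 0.0106) and not called between *pifq* SD and WT SD (-0.97, adjusted p = 0.107). Of the tissue markers listed beforehand, only the root gene *EXPA7* had a named probe set. Its linear signal was 173 to 180 in *pifq* SD and 170 to 226 in WT SD. In LL it was 169 to 174 in *pifq* LL and 148 to 162 in WT LL, and it had no call in any fit. The part of these marker differences in the results for the 5 genes was not tested.

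*HDR* encodes the last enzyme of the MEP pathway, a reductase that releases isopentenyl and dimethylallyl diphosphate for all plastid isoprenoids. Its signal was 10.02, 10.10 and 10.20 in *pifq* SD (10.11 ± 0.09), against 9.37, 9.58 and 9.47 in WT SD (9.47 ± 0.10). In continuous light it was 9.94, 9.94 and 9.82 in *pifq* LL (9.90 ± 0.07), against 9.88, 9.70 and 9.78 in WT LL (9.79 ± 0.09). The 3 *pifq* SD arrays were the highest of the 12 and the 3 WT SD arrays the lowest, whereas the LL arrays of the 2 genotypes overlapped. *HDR* was the only 1 of the 5 genes with its highest group mean in *pifq* SD, followed by *pifq* LL, WT LL and WT SD, and each pair of neighbours in that order missed the call, with adjusted p of 0.343, 0.938 and 0.11.

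*PSY* encodes phytoene synthase, the first enzyme committed to carotenoids. It had 8.71, 8.45 and 8.64 in *pifq* SD (8.60 ± 0.14), against 7.83, 7.92 and 8.02 in WT SD (7.92 ± 0.09). In LL it had 9.07, 9.07 and 9.00 in *pifq* LL (9.05 ± 0.04), against 9.06, 9.01 and 9.05 in WT LL (9.04 ± 0.03). All 6 LL arrays lay above the 3 *pifq* SD arrays, which lay above the 3 WT SD arrays, and the order of the means was *pifq* LL, WT LL, *pifq* SD and WT SD. The first 2 of these did not differ beyond their spread.

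The 3 other genes act on the xanthophyll branch. *BCH2* encodes a non-heme hydroxylase of the beta rings, which turns beta-carotene into zeaxanthin. Its signal was 8.09, 7.95 and 8.05 in *pifq* SD (8.03 ± 0.07), against 7.55, 7.63 and 7.54 in WT SD (7.57 ± 0.05). In LL it was 8.34, 8.76 and 8.97 in *pifq* LL (8.69 ± 0.32), against 8.63, 8.94 and 8.82 in WT LL (8.80 ± 0.15). The *pifq* LL arrays had the widest spread of any group among the 5 genes, with replicate 1 lowest, and overlapped the WT LL arrays. The SD arrays of the 2 genotypes did not overlap.

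*CYP97A3* encodes a cytochrome P450 that hydroxylates the beta ring on the way to lutein. It had 9.93, 9.84 and 10.09 in *pifq* SD (9.95 ± 0.12), against 9.23, 9.14 and 9.42 in WT SD (9.26 ± 0.14). In LL it had 10.29, 10.28 and 10.40 in *pifq* LL (10.33 ± 0.07), against 10.34, 10.66 and 10.37 in WT LL (10.46 ± 0.18). The arrays fell into the same steps as for *PSY*, with the *pifq* SD arrays between the WT SD arrays and the overlapping LL arrays.

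*ZEP* encodes zeaxanthin epoxidase, which makes violaxanthin and so leads to abscisic acid. It had 9.98, 9.63 and 9.98 in *pifq* SD (9.86 ± 0.20), against 9.38, 9.20 and 9.26 in WT SD (9.28 ± 0.09). In LL it had 10.65, 10.71 and 10.71 in *pifq* LL (10.69 ± 0.03), against 10.81, 11.10 and 10.83 in WT LL (10.91 ± 0.16). *ZEP* was the only 1 of the 5 genes whose arrays did not overlap between any of the compared pairs of groups, *pifq* LL and WT LL included, where all arrays of *pifq* LL lay below those of WT LL for 5.58% of all probe sets and above them for 7.75%. *BCH2*, *CYP97A3* and *ZEP* shared the order WT LL, *pifq* LL, *pifq* SD and WT SD.

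**Figure D1:**
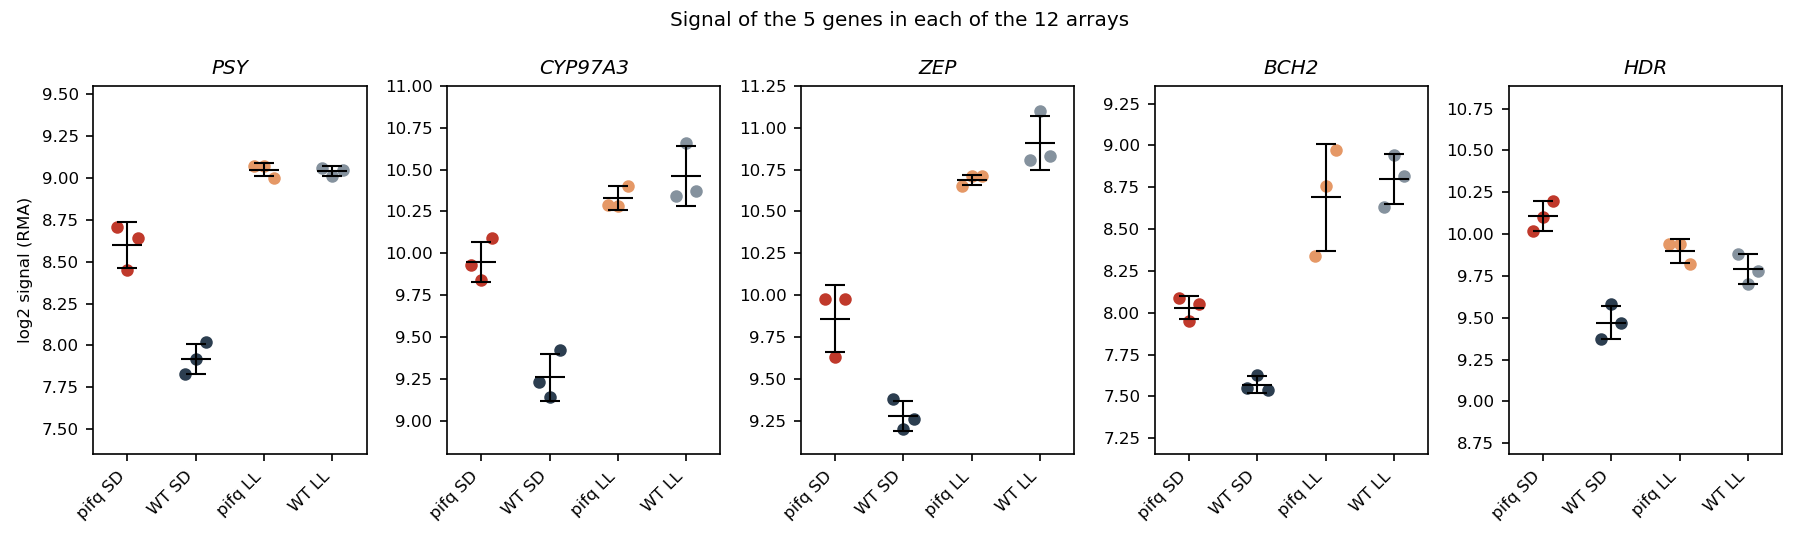
Log2 RMA signal (vertical axes, each spanning the same width) of the 5 genes in the 12 arrays. Coloured points are arrays by group, and black bars are the mean ± SD (n = 3). For each gene, the 3 WT SD arrays are the lowest of the 12, with group means of 7.92 (*PSY*), 9.26 (*CYP97A3*), 9.28 (*ZEP*), 7.57 (*BCH2*) and 9.47 (*HDR*). The *HDR* panel differs in having its highest mean, 10.11, in *pifq* SD.

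The comparison of *pifq* SD with WT SD asked which transcripts depend on PIFq at the end of a long night. *PSY*, *CYP97A3* and *HDR* were higher in *pifq* SD, by 1.6, 1.62 and 1.55 fold. *PSY* had a log2 FC of 0.68 ± 0.10 (limma adjusted p = 0.0103), *CYP97A3* of 0.69 ± 0.13 (adjusted p = 0.0257) and *HDR* of 0.64 ± 0.11 (adjusted p = 0.0151). *ZEP* lay at the edge of the fold bound and missed the p threshold, with 0.58 ± 0.13 (adjusted p = 0.0605), and *BCH2* had 0.46 ± 0.16 (adjusted p = 0.266). The 95% intervals of these last 2 were 0.29 to 0.87 and 0.11 to 0.80. Thus 3 of the 5 genes were called higher and 0 lower, where 0.635% of all probe sets were called higher and 0.847% lower, and all 3 *pifq* SD arrays lay above all 3 WT SD arrays for each of the 5, as they did for 8.85% of all probe sets, with 6.71% the other way. The median log2 FC was 0.64 over the 5 genes and 0.03 over all probe sets.

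These 3 calls depended on the arrays in the fit. With only the 6 arrays of *pifq* SD and WT SD fitted, the adjusted p was 0.185 to 0.191 and 0 of the 5 were called, and with a replicate block *CYP97A3* had adjusted p = 0.0515. Without WT SD replicate 1 the adjusted p was 0.0577 for *PSY*, 0.11 for *CYP97A3* and 0.0813 for *HDR*, and without *pifq* SD replicate 3 it was 0.0546, 0.113 and 0.0759, so that 0 of the 5 were called in either case. For *CYP97A3* the adjusted p was also above the threshold when WT SD replicate 2 was left out (0.0929) and when *pifq* SD replicate 1 was (0.0741), and for *HDR* when WT SD replicate 3 was (0.0662). *ZEP* gained a call without *pifq* SD replicate 2 (log2 FC 0.70, adjusted p = 0.0318), the array with the lowest *pifq* SD signal for *PSY*, *CYP97A3*, *ZEP* and *BCH2*.

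The comparison of WT SD with WT LL set wild type after the long night against wild type in continuous light. Each group was sampled at a single time, so it does not show a change during the night. From published time courses, the study describes the genes repressed by both SD and PIFq as rising through the SD night. It gives *PSY* and *CYP97A3* as examples of these genes. *ZEP*, *BCH2*, *CYP97A3* and *PSY* were lower in WT SD, by 3.1, 2.34, 2.29 and 2.17 fold. *ZEP*, the largest of the 5 differences, had a log2 FC of -1.63 ± 0.13 (95% interval -1.92 to -1.34, limma adjusted p = 5.71e-05). *BCH2* had -1.22 ± 0.16 (adjusted p = 0.000815), *CYP97A3* had -1.20 ± 0.13 (adjusted p = 0.000291) and *PSY* had -1.12 ± 0.10 (adjusted p = 0.000131). *HDR* had -0.32 ± 0.11 (adjusted p = 0.11), with an interval of -0.55 to -0.08 that stays within the 1.5 fold bound. In all, 4 of the 5 genes were called lower, where 3.43% of all probe sets were called lower and 3.16% higher, and all 3 WT SD arrays lay below all 3 WT LL arrays for each of the 5, as for 14.4% of all probe sets, with 13.8% the other way. The median log2 FC was -1.20 over the 5 genes and -0.01 over all probe sets. These 4 calls were kept in every alternative and with any single array left out.

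The comparison of *pifq* SD with *pifq* LL gave the same light contrast in the mutant of the PIFq genes. *ZEP* was lower in *pifq* SD by 1.77 fold (log2 FC -0.83 ± 0.13, limma adjusted p = 0.00658) and *BCH2* by 1.58 fold (-0.66 ± 0.16, adjusted p = 0.0417). *PSY*, at -0.45 ± 0.10 (adjusted p = 0.0385), passed on p but was under the fold, *CYP97A3* had -0.37 ± 0.13 (adjusted p = 0.148), and *HDR* lay on the other side of 0, at 0.21 ± 0.11 (adjusted p = 0.343, interval -0.03 to 0.44). So 2 of the 5 were called lower, where 1.88% of all probe sets were called lower and 1.79% higher, and all 3 *pifq* SD arrays lay below all 3 *pifq* LL arrays for *PSY*, *CYP97A3*, *ZEP* and *BCH2*, as for 11.3% of all probe sets, and above them for *HDR*, as for 10.6%. The *BCH2* call was kept without *pifq* LL replicate 1 (adjusted p = 0.0131), its lowest *pifq* LL array, and lost without any 1 of the other 11 arrays (adjusted p 0.054 to 0.125), which leaves 1 gene called. With only the *pifq* arrays fitted, neither *ZEP* (adjusted p = 0.0949) nor *BCH2* (0.225) was called.

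In continuous light, *pifq* LL relative to WT LL, 0 of the 5 genes were called by limma and 0 had an unadjusted p below 0.05, where 0.0105% of all probe sets were called higher and 0.00787% lower. The log2 FC was 0.01 for *PSY*, -0.13 for *CYP97A3*, -0.22 for *ZEP*, -0.11 for *BCH2* and 0.11 for *HDR*, with adjusted p between 0.864 and 0.999. Their 95% intervals lay between -0.52 and 0.35, inside the 1.5 fold bound for each gene.

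**Figure D2:**
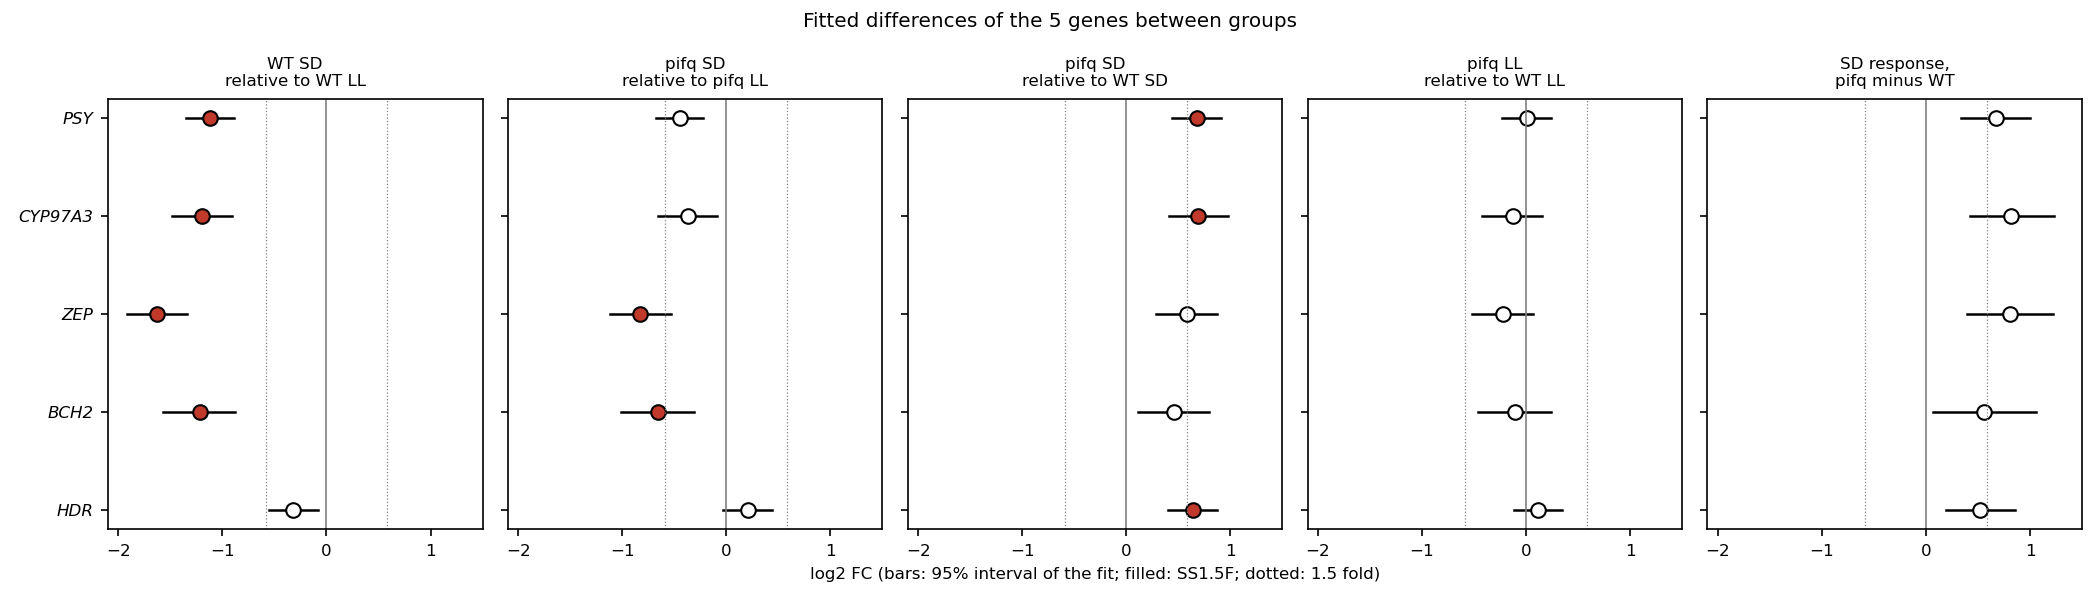
Fitted log2 FC (horizontal axis) of the 5 genes in 4 comparisons and in the difference between the SD responses of the genotypes. Circles are estimates, filled where called, lines are 95% intervals, and dotted lines mark 1.5 fold. *PSY*, *CYP97A3*, *ZEP* and *BCH2* lie between -1.63 and -1.12 for WT SD with WT LL and between -0.83 and -0.37 for *pifq* SD with *pifq* LL, and all 5 lie between -0.22 and 0.11 in *pifq* LL relative to WT LL.

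Whether the genotypes differed in their response to SD was tested as the difference itself, *pifq* SD relative to *pifq* LL minus WT SD relative to WT LL. It was above 0 for each gene, 0.82 ± 0.18 for *CYP97A3*, 0.81 ± 0.19 for *ZEP*, 0.67 ± 0.15 for *PSY*, 0.56 ± 0.22 for *BCH2* and 0.52 ± 0.15 for *HDR*. All 5 had an unadjusted limma p below 0.05 (0.000978 to 0.0286), as did 2507 of the 38113 probe sets. After adjustment over all probe sets, 0 of 5 were called (limma adjusted p 0.175 to 0.65). Of all probe sets, 0.0157% were called higher and 0.136% lower. The difference uses the arrays of both comparisons behind the study's list, so it is not independent of how the 5 genes were named. With an intensity trend in the variance model, *PSY*, *CYP97A3* and *ZEP* were called (adjusted p 0.0261, 0.0266 and 0.0359).

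The study's PIFq contribution was computed for single genes on the log2 scale. It is the *pifq* SD minus WT SD difference as a percentage of the WT LL minus WT SD difference. It was 60.4% ± 12.1 for *PSY* and 57.8% ± 10.4 for *CYP97A3*, against 37.3% ± 5.71 for *BCH2* and 35.7% ± 12.5 for *ZEP* (SD over the 3 *pifq* SD arrays). For single *pifq* SD arrays it was 70.5, 46.9 and 63.8% for *PSY*, 55.9, 48.5 and 69.0% for *CYP97A3*, 42.0, 30.9 and 39.0% for *BCH2* and 43.1, 21.2 and 42.8% for *ZEP*. The lowest array of *PSY* or of *CYP97A3* was above the highest of *BCH2* and of *ZEP*. The WT SD and WT LL means were held fixed in these values and SDs, so the spread of the WT arrays is not in them. Both differences use the same WT SD arrays, so these percentages are a description with no test. For *BCH2* and *ZEP* the *pifq* SD minus WT SD difference was not called (limma adjusted p = 0.266 and 0.0605). *HDR* has no percentage because its difference between WT SD and WT LL was not called.

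**Figure D3:**
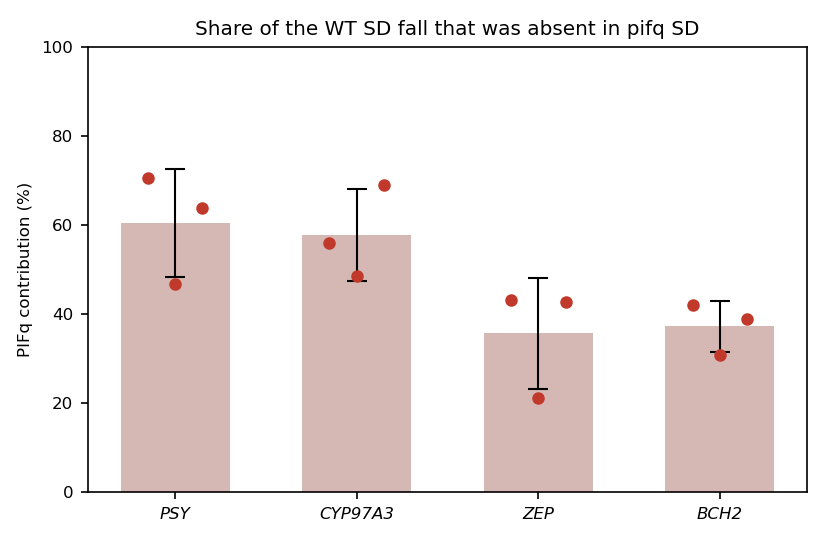
PIFq contribution (vertical axis, percent of the WT LL minus WT SD difference in log2 signal) for the 4 genes with a call between WT SD and WT LL. Bars are means, points the 3 *pifq* SD arrays and error bars the SD over them, with the WT SD and WT LL means held fixed. *PSY* and *CYP97A3* stand at 60.4 and 57.8%, and *BCH2* and *ZEP* at 37.3 and 35.7%.

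The rest of the plastid pathway was read from lists of 48 genes, the 5 included, of which 20 had a named probe set, 17 through the study's list and 3 through the platform. *SPS2*, a solanesyl diphosphate synthase that makes the side chain of plastoquinone, was the only gene besides *PSY*, *CYP97A3* and *HDR* with a call between *pifq* SD and WT SD (8.19 in *pifq* SD and 7.36 in WT SD, log2 FC 0.83 ± 0.12, limma adjusted p = 0.00717), a call kept with any single array left out and lost with only the arrays of these groups fitted (adjusted p = 0.0933). Of the 15 measured genes outside the 5, 1 was called higher and 0 lower, with a median log2 FC of 0.43. Over all 20, 19 had a log2 FC above 0. Since 17 of the 20 were named because the study listed them as regulated, these counts do not estimate how often plastid isoprenoid genes respond. Without WT SD replicate 1 or *pifq* SD replicate 3, *SPS2* was the only 1 of the 20 still called.

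Between WT SD and WT LL, 14 of the 20 genes were lower in WT SD, 1 was higher and 5 were not called, and 10, 1 and 4 of these were among the 15 genes outside the 5. Of all probe sets, 3.43% were called lower and 3.16% higher. All calls among the 20 fell on the 17 genes named through the study's list of regulated genes, and 0 on the 3 named by the platform. Since this comparison is behind that list, the counts do not estimate how often plastid isoprenoid genes respond. In the MEP pathway, *CMK*, a kinase of its middle steps, had -0.77 ± 0.17 (limma adjusted p = 0.0199) and *MDS*, the cyclising synthase after it, had -0.77 (adjusted p = 0.00105). Among carotene genes, *PDS*, the phytoene desaturase, had -0.77 (adjusted p = 0.00106) and *LCYE*, the epsilon cyclase that opens the lutein branch, had -0.98 (adjusted p = 0.00528). The *CMK* call was lost without WT SD replicate 2 or 3, or WT LL replicate 1 or 2 (adjusted p 0.0693 to 0.0821), and with only the arrays of WT SD and WT LL fitted (0.0506).

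Of the 10 prenylquinone and tocopherol genes listed, 6 had a named probe set, and 5 of these were called lower, all of them named through the study's list. *GGR*, the geranylgeranyl reductase named by the platform, had -0.08 (limma adjusted p = 0.765). *VTE1*, the tocopherol cyclase, had a log2 FC of -1.40 (adjusted p = 0.000215), *SPS2* of -1.32 (adjusted p = 0.000115), and *SPS1*, which like *SPS2* makes solanesyl diphosphate, of -1.22 (adjusted p = 0.000301). *HST*, which attaches that chain to homogentisate, had -0.86 (adjusted p = 0.00294), and *VTE3*, a methyltransferase of both plastoquinone and tocopherol synthesis, had -0.62 (adjusted p = 0.00363), a call that fell under 1.5 fold without WT SD replicate 3, with arrays centred on their medians and with quantile normalization. The cleavage enzymes went opposite ways. *CCD4*, which degrades carotenoids, was lower at -1.43 (adjusted p = 0.00391), and *CCD8*, an enzyme of strigolactone synthesis, was higher at 0.90 (adjusted p = 0.00356).

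In *pifq* SD relative to *pifq* LL, *CCD4* had -1.22 (limma adjusted p = 0.0181), *LCYE* -0.89 (0.018), *VTE1* -0.76 (0.015), *SPS1* -0.74 (0.0112), *SPS2* -0.66 (0.0127) and *CCD8* 0.63 (0.0389), so that with *ZEP* and *BCH2* 7 of the 20 genes were called lower and 1 higher. Of all probe sets, 1.88% were called lower and 1.79% higher. All calls among the 20 fell on the 17 genes named through the study's list, and 0 on the 3 named by the platform. Leaving out single arrays ended the call in 5 of 12 cases for *CCD4*, in 3 of 12 for *LCYE* and *VTE1*, in 11 of 12 for *CCD8* and in 0 of 12 for *SPS1* and *SPS2*. With only the *pifq* arrays fitted, 0 of these 6 were called (adjusted p = 0.13 for *SPS1* and 0.128 for *SPS2*), and *CCD8* also lost its call with a replicate block. *CCD4* and *LCYE* had a log2 FC of 0.05 and 0.21 between *pifq* SD and WT SD (adjusted p = 0.985 and 0.807). In *pifq* LL relative to WT LL, 0 of the 20 genes were called by limma and 1 had an unadjusted p below 0.05, and their median log2 FC was 0.03.

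The 3 plastid genes that the platform itself names, *ZISO* (a carotene isomerase), *GGR* (the geranylgeranyl reductase that supplies phytyl chains) and *OR* (a chaperone of phytoene synthase), were not named through that list, although they are singled out here after their values were seen. By limma, 0 of these 3 were called in any of the 5 fits. Between *pifq* SD and WT SD, 2 had an unadjusted p below 0.05 (median log2 FC 0.30), as did 4083 of the 38113 probe sets. Between WT SD and WT LL, 2 did (median -0.39), as did 7524 of the probe sets. *OR* between WT SD and WT LL passed on p (log2 FC -0.54, adjusted p = 0.0101) but was under the fold. *BCH1*, *CYP97B3* and *CYP97C1*, the relatives of *BCH2* and *CYP97A3*, were not analysed here. In the cytosolic mevalonate pathway, which makes sterols, 3 of 8 genes had a named probe set, all 3 through the study's list of regulated genes. Their calls and directions in these 2 comparisons are therefore not independent of how they were named. *HMG1*, the hydroxymethylglutaryl-CoA reductase at its control point, was higher in WT SD than in WT LL (log2 FC 0.65 ± 0.10, limma adjusted p = 0.00271), and 0 of the 3 had a call between *pifq* SD and WT SD, where all 3 had a log2 FC below 0 and 2 an unadjusted p below 0.05.

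**Figure D4:**
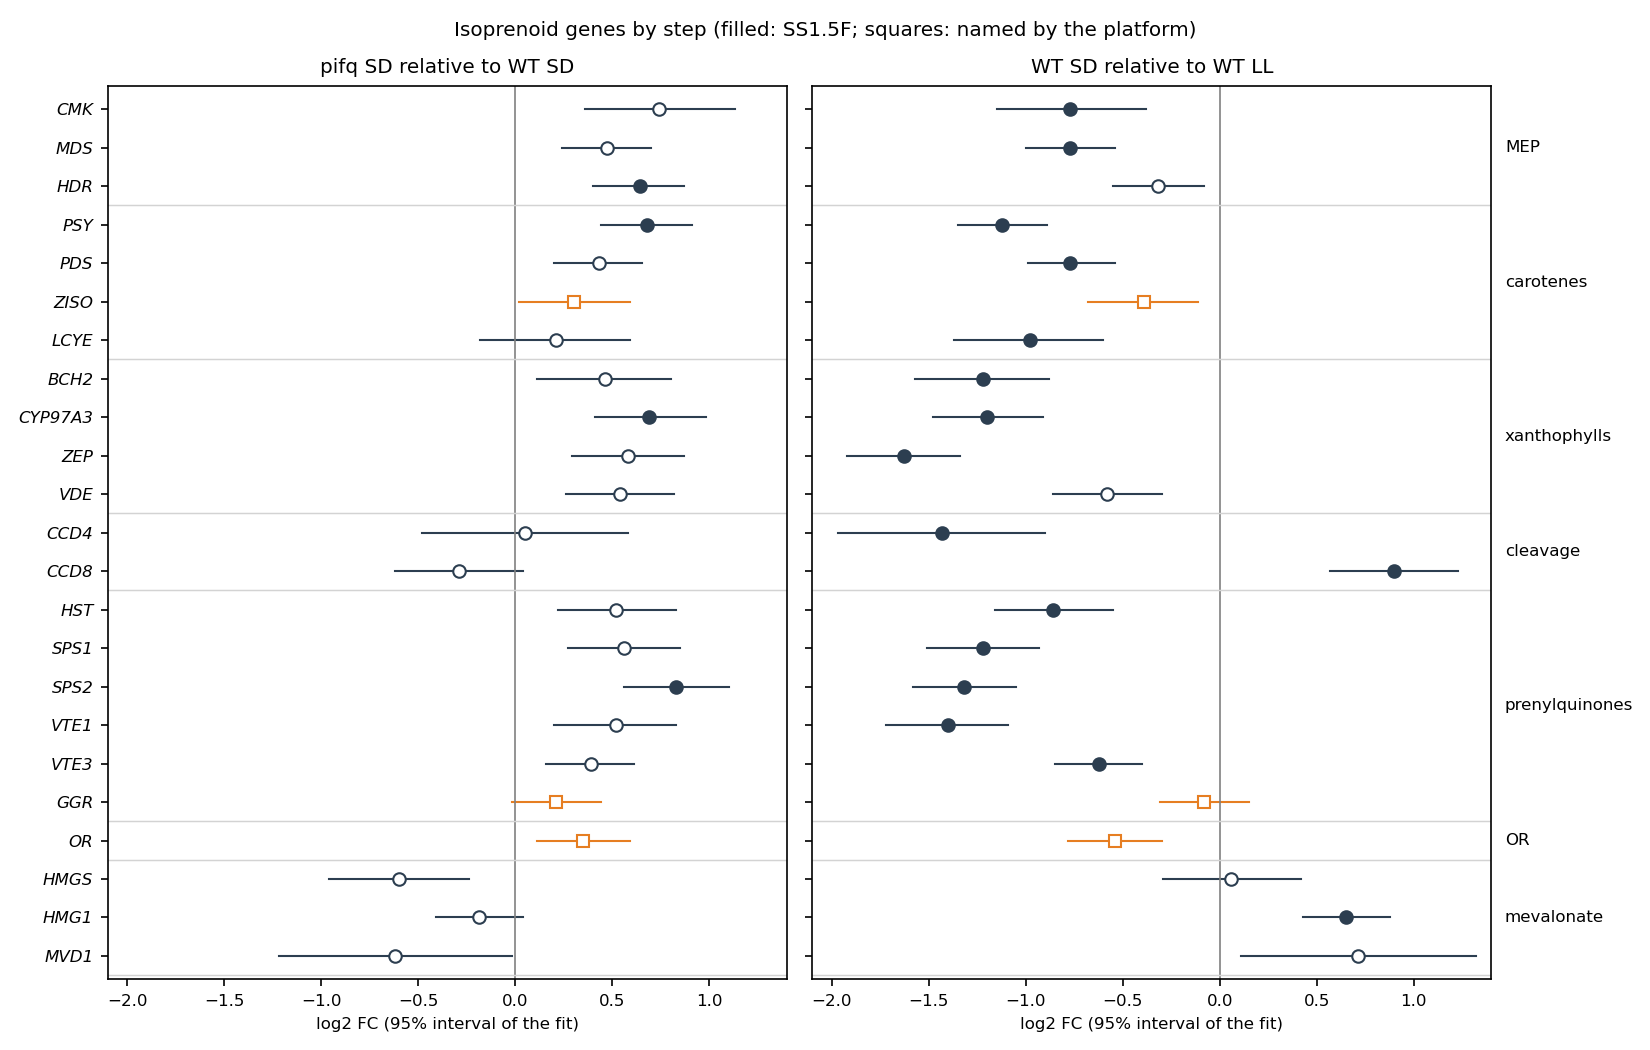
Log2 FC (horizontal axes, with 95% intervals of the fit) of the 20 measured plastid isoprenoid genes and 3 mevalonate genes, grouped by step, for *pifq* SD relative to WT SD (left) and WT SD relative to WT LL (right). Filled symbols were called, circles were named through the study's list and squares by the platform. 4 plastid genes are filled on the left, *SPS2* with the largest log2 FC of 0.83, and 15 on the right, of which *CCD8* alone lies above 0.

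The genes most like the 5 across the arrays were taken from the 16487 genes named by the platform, by Pearson r over the 12 arrays with the mean of the standardised profiles of the 5. They were AT4G12830, an alpha/beta-hydrolase (r = 0.991), AT3G16220, a predicted LigT-type protein (0.988), AT3G44970, a cytochrome P450 (0.987), AT5G08650, a small GTP-binding protein (0.986), and AT4G27700, a rhodanese-type protein (0.984). AT3G44970 had group means of 8.77 in *pifq* SD, 7.27 in WT SD, 9.88 in *pifq* LL and 10.08 in WT LL, and AT4G12830 had 7.77, 6.59, 8.64 and 8.64 in the same groups. The 5 genes themselves, which are part of the mean, had r of 0.988 (*PSY*), 0.981 (*CYP97A3*), 0.945 (*ZEP*), 0.929 (*BCH2*) and 0.627 (*HDR*). The 12 points share 4 groups, so these r values describe mainly the order of the group means.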

How the data were processed

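RNA of whole seedlings was hybridised to 12 AraGene 1.0 ST arrays. The authors deposited RMA log2 signals per probe set; their software version, probe set level and genome build are not given in the sources used here, and their Rosetta Resolver test was replaced by limma. From 38408 probe sets, 98 controls were removed, and where a locus had several only the brightest was kept, which removed 197. The platform annotation named 1 gene for 16714 and several for 759 (left unnamed), and the study's list, held in part (1999 rows), named 1039 more. Of the tested probe sets, 7102 share all values with another, none of them a member. limma 3.58.1 (R 4.3.3) fitted a mean per group. The 5 genes and the lists were chosen with earlier results of these data known. Named were the 5 genes, list genes with a call between *pifq* SD and WT SD or between WT SD and WT LL, relatives of *BCH2* and *CYP97A3*, and the 5 genes most like the 5 in profile. *ZISO*, *GGR* and *OR* and the marker genes other than *EXPA7*, which was listed beforehand, were added after their values were seen. The fit was tested on simulated data. Alternatives were array scaling, a filter on dim probe sets, the arrays fitted, the variance model, the fold, probe set choice, the replicate number and single arrays left out. Promoters were not examined. The number of arrays limits the precision.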

Additional observations from a re-analysis of the deposited data

Results flagged for a closer look

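*HDR* was the only 1 of the 5 genes whose SD response pointed opposite ways in the 2 genotypes. Its 3 *pifq* SD arrays (10.02 to 10.20) lay above its 3 *pifq* LL arrays (9.82 to 9.94), as for 10.6% of all probe sets. The 95% interval of that log2 difference was -0.03 to 0.44. Its 3 WT SD arrays (9.37 to 9.58) lay below its 3 WT LL arrays (9.70 to 9.88), as for 14.4% of all probe sets. The test of the difference itself, *pifq* minus WT, gave 0.52 ± 0.15 on the log2 scale (95% interval 0.19 to 0.86, limma unadjusted p = 0.00557, adjusted p = 0.367), and neither SD response alone was called.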

How the results depend on the processing

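With only the 6 arrays compared in the fit, *pifq* SD relative to WT SD had calls for 0 of the 5 genes (adjusted p 0.185 to 0.191 for *PSY*, *CYP97A3* and *HDR*), 0 plastid list genes and 66 probe sets in all, against 3, 4 and 565 in the fit of all 12, and between *pifq* SD and *pifq* LL for 0 of the 5 genes and 189 probe sets, against 2 and 1398. An intensity trend gave 18 probe sets in *pifq* LL relative to WT LL, against 7, and 3 of the 5 genes and 206 probe sets in the difference of the SD responses, against 0 and 58, while leaving out the probe sets in the lowest quartile of mean signal gave 122. Same-numbered replicates of *pifq* SD and WT SD deviated together by r of 0.147, 0.348 and 0.081, against -0.232 to 0.119 for different numbers. In the other comparisons of groups, the r of same-numbered replicates was -0.066 to 0.055. The numbers were not taken as pairs, since the methods of the study name no replicate block. With a replicate block, 467, 2455, 1299, 8 and 33 probe sets were called in the 5 fits, *CYP97A3* in *pifq* SD relative to WT SD had adjusted p = 0.0515, and between *pifq* SD and *pifq* LL 1 of the 5 genes was called (*BCH2* adjusted p = 0.0537).

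With single arrays left out, the genes called among the 5 ranged from 0 to 4 in *pifq* SD relative to WT SD, from 4 to 4 in WT SD relative to WT LL, from 1 to 2 for *pifq* SD with *pifq* LL and from 0 to 0 in the other 2 fits. The plastid list genes called ranged from 1 to 5 and from 14 to 16 in the first 2 fits. All probe sets called ranged from 273 to 503, 1918 to 2641, 834 to 1367, 7 to 9 and 6 to 26. The PIFq contribution ranged from 55.3 to 67.1% for *PSY*, 52.2 to 63.2% for *CYP97A3*, 32.0 to 42.9% for *ZEP* and 34.9 to 40.5% for *BCH2*. In *pifq* LL relative to WT LL, the sign turned for *PSY*, to -0.02 with arrays centred on their medians and to -0.01 without WT LL replicate 2 or *pifq* LL replicate 1 or 2, (range -0.01 to 0.03 with single arrays left out), and for *BCH2*, to 0.07 without *pifq* LL replicate 1 (range -0.25 to 0.07). For single genes, 483 of the repeated values kept direction and call, 27 lost the call and 5 gained it. Where no cause is given, the cause was not tested.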

Other observations

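Within *pifq* SD, replicate 2 had the lowest signal for 4 of the 5 genes (*PSY*, *CYP97A3*, *ZEP* and *BCH2*), and within WT LL, replicate 2 had the highest signal for 3 (*CYP97A3*, *ZEP* and *BCH2*) and replicate 1 the lowest for the same 3.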
